A study of Mus musculus with 16 samples.

Results

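The 43 genes described here encode proteins of the lysosome and of the proton pump that acidifies it, measured in mouse macrophages given apoptotic cells. They were chosen by name and known role, with no threshold on a measured value but with earlier results of these data known: 10 cathepsins and other lysosomal proteases, 5 genes of lipid and sphingolipid handling, 5 glycosidases, 4 genes for nucleases and progranulin, 4 membrane proteins including an ion channel, 3 Rab GTPases, and 5 genes of the V0 and 7 of the V1 sector of the proton pump. All 43 matched a gene ID among the 55416 of the count table, and all 43 were among the 14168 genes that passed the filter on low counts. The lowest count of any of them in any library was 132.

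The macrophages were of the Hoxb8 line, labelled as bone marrow, and no other allele or agent is named for any group. Such lines are grown from mouse progenitors that the transcription factor Hoxb8 holds in an immature, dividing state until they are allowed to mature. In 1 group the macrophages were alone, and in the other 3 they had spent 45, 90 or 180 min with apoptotic Jurkat cells, which derive from a human T cell leukaemia. Each of the 4 groups held 4 libraries of total RNA depleted of ribosomal RNA. The labels do not say when the macrophages alone were harvested or whether the 4 libraries of a group stem from different cultures. The p-values therefore rest on the spread among these libraries alone, and that spread may be technical. The 3 comparisons with macrophages alone share the same 4 control libraries.

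The lysosome is the acidic compartment in which a phagocyte breaks down what it has taken up, a swallowed dying cell included; the uptake of dying cells is called efferocytosis. Its hydrolases work at low pH, which the vacuolar proton pump (V-ATPase) maintains: the V1 sector splits ATP on the cytosolic side and the V0 sector carries protons across the membrane. Macrophages make large amounts of lysosomal proteins, and many of the genes carry the promoter letters CACGTG, to which the transcription factors TFEB, TFE3 and MITF can bind.

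Levels are given in CPM, the count of a gene relative to the library's scaled total. Totals ran from 18.7 M to 27.7 M counts in macrophages alone, from 24.4 M to 41.7 M at 45 min, from 13.6 M to 17.4 M at 90 min and from 10.7 M to 23.4 M at 180 min. The 10 macrophage markers, among them Adgre1, Csf1r and Mertk, were all detected, and their summed level was 15935 to 16317 CPM in macrophages alone, 16797 to 17979 CPM at 45 min, 15364 to 16040 CPM at 90 min and 14467 to 16135 CPM at 180 min. The 10 T cell or Jurkat markers summed to 11.8 to 15.2 CPM in macrophages alone and to 9.72 to 11.1 CPM, 9.34 to 12.2 CPM and 11.1 to 15.9 CPM at the 3 times, with 4 to 6 of the 10 at 0 in a group. Most of each sum was Cd28, at 12.3 CPM in macrophages alone and 9.73, 9.55 and 11.4 CPM at the 3 times. These are counts of mouse genes, and the Jurkat cells are human, so the sums do not measure Jurkat RNA. Neutrophil markers stayed at or below 4.43 CPM in sum, and the 3 erythroid or mast cell markers were at 0 in every group.

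Promoters are shown for 4 of the genes because each carries CACGTG and they moved in opposite directions: Mcoln1, a channel gene, rose at 90 and 180 min, and Ctsd, Lamp1 and Lgmn fell. RefSeq's table of mouse promoters (GRCm38.p6, 250 bases before to 50 after a listed start) had entries for 35 of the 43 genes. Both CACGTG and TCACGTGA were searched, each its own reverse complement and so covering both strands, and every TCACGTGA also holds CACGTG. The 250 bases before each start are printed 5′ to 3′ on the gene's strand, with CACGTG in capitals and, where the 8 letters are complete, TCACGTGA. The windows are chr8:3500269-3500518 on the plus strand for Mcoln1, chr7:142387828-142388077 on the minus strand for Ctsd, chr8:13158911-13159160 on the plus strand for Lamp1 and chr12:102439093-102439342 on the minus strand for Lgmn. The authors' counts were made on mm39, a different build, so these positions serve only to show the sequence.
Mcoln1: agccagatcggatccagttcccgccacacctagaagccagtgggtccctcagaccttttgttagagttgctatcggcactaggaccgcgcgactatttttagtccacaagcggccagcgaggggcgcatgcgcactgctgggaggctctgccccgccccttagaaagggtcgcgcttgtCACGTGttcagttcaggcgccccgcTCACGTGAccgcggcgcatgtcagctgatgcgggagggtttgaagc
Ctsd: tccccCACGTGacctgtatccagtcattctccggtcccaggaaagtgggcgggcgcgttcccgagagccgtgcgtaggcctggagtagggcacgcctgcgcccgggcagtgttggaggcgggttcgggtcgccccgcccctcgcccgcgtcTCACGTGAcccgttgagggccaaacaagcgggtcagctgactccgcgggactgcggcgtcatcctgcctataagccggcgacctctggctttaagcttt
Lamp1: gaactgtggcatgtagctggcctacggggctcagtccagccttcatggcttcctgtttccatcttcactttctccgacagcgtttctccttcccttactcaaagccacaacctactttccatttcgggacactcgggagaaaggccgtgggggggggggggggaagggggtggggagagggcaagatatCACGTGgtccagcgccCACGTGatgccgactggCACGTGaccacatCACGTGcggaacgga
Lgmn: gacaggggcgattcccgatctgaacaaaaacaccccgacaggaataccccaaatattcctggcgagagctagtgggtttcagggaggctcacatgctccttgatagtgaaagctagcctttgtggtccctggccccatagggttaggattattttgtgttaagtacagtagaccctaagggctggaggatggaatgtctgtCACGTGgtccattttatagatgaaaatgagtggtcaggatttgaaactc
In Lamp1 the letters occur 4 times within the last 61 bases before the start. Mcoln1 holds them at 71 and 45 bases before the start, Ctsd at 245 and 98, and Lgmn once, at 49. The 35 genes had 41 entries, and a gene was counted if any of its windows held the letters. CACGTG was present for 11 of the 35 genes (31.4%) and for 8.09% of the 27025 genes of the table, and TCACGTGA for 7 of the 35 (20.0%) and for 1.12% of all genes. The 11 genes were Atp6v0d1, Atp6v1a, Ctsa, Ctsd, Ctsl, Gaa, Gla, Lamp1, Lgmn, Mcoln1 and Rab5a. The start listed for Ctsl may not be its main start. Of these 11, 2 were higher, 7 lower and 2 not called at 180 min against macrophages alone, with a median log2 difference of -0.12. Of the 24 without it, 2 were higher, 12 lower and 10 not called, also with a median of -0.12. Over all 14168 genes that passed the filter, 15.1% were higher and 16% lower at that time. A match describes these letters only and is no evidence of a bound factor, and a window without them says nothing of the factor either.

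Summed as a set, the lysosomal genes were a little higher at 45 min and lower at 90 and 180 min than in macrophages alone. Together they took 5.80 ± 0.0926% of all counts in macrophages alone (SD, n = 4), 6.16 ± 0.124% at 45 min, 5.28 ± 0.128% at 90 min and 5.23 ± 0.208% at 180 min. The 4 libraries at 45 min, between 6.002% and 6.30%, all lay above the 4 of macrophages alone, between 5.73% and 5.94%. Those at 90 min, between 5.09% and 5.38%, and at 180 min, between 5.07% and 5.51%, all lay below them. The most abundant genes weigh most in this sum, such as Ctsb, with a mean of 14259 CPM in macrophages alone. It does not show that each gene followed the same course. In RNA from a whole culture, fewer cells of a type and less RNA per cell cannot be told apart.

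**Figure D1:**
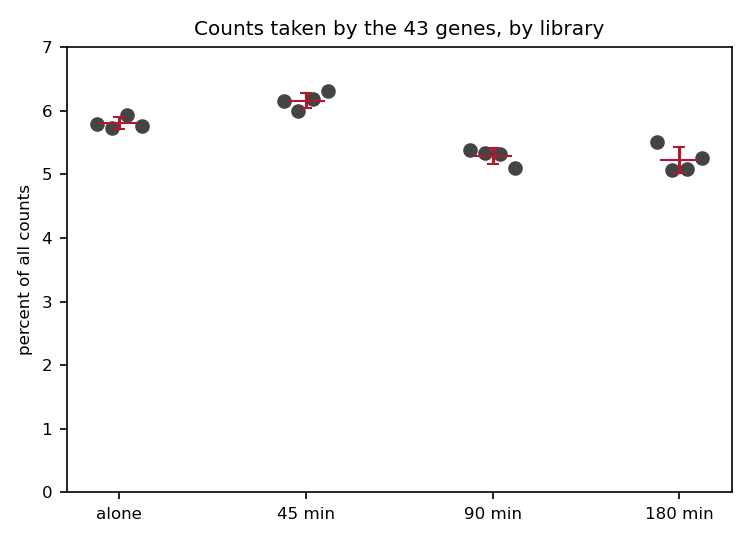
Percent of all counts taken by the 43 genes in each library (dots), with the mean and SD of 4 libraries (red), for macrophages alone and the 3 times with apoptotic cells. The 45 min libraries are the highest, at 6.002% to 6.30%, and no library at 90 or 180 min exceeds 5.51%.

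Single genes were tested with edgeR's quasi-likelihood F test across all 14168 genes, and called at a Benjamini-Hochberg adjusted p under 0.05. At 45 min 9 of the 43 were higher than in macrophages alone, where 4.69% of all genes were, and 1 was lower, where 6.11% were. At 90 min 4 were higher, against 11.1% of all genes, and 16 were lower, against 9.97%. At 180 min 5 were higher, against 15.1% of all genes, and 23 were lower, against 16%. The share of members called lower thus was 37.2% at 90 min and 53.5% at 180 min, and the share called higher at 45 min was 20.9%. The median log2 difference over the 43 was 0.09, -0.10 and -0.12 at the 3 times, while over all genes tested it was 0.00, 0.00 and 0.01. Without library 1 of 180 min, which belongs to neither group, 19 members were called higher at 45 min in place of 9. That library enters the filter, the scaling and the shared estimate of the spread, and which of these mattered was not tested. The share of all genes called without it was not computed.

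Between times, the fall came between 45 and 90 min. At 90 against 45 min 27 of the 43 were lower, against 13.3% of all genes, and 2 were higher, against 14.8%. At 180 against 90 min 4 were lower, against 6.97% of all genes, and 2 were higher, against 4.45%. At 180 against 45 min 31 were lower, against 18% of all genes, and 3 were higher, against 18.3%. Of the 27 lower at 90 against 45 min, 24 were not called between 90 and 180 min. In that interval 12550 of all 14168 genes tested were not called either, so this count is near the background. The highest of the 4 group means was at 45 min for 30 of the 43 genes, and the lowest was at 180 min for 24 and at 90 min for 9. These ranks were not counted over all genes, so they have no background beside them.

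**Figure D2:**
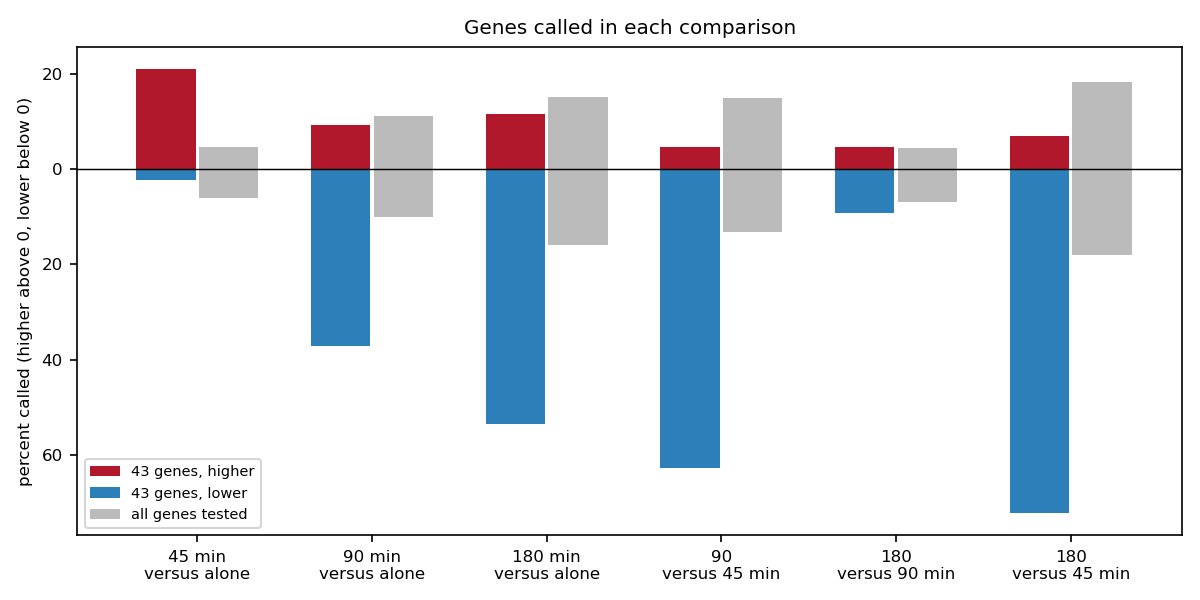
Percent of the 43 genes called higher (red, above 0) and lower (blue, below 0) at an adjusted p under 0.05 in each of 6 comparisons, beside the percent of all 14168 genes tested (grey). The blue bars exceed the grey ones below 0 in every comparison except 45 min against alone, and by least at 180 against 90 min.

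The changes were small. Called differences against macrophages alone lay between -0.29 (Ctsc, 180 min) and 0.38 (Mcoln1, 180 min) on the log2 scale. The libraries of a time and those of macrophages alone did not overlap in 18 of the 43 genes at 45 min (16.9% of all genes), in 23 at 90 min (21.2%) and in 21 at 180 min (28.6%). A joint test of the 3 times against macrophages alone called 39 of the 43, against 44.6% of all genes, and 33 of the 43 were called at 1 or more single times against macrophages alone. The most common pattern, in 13 genes, was no call at 45 min and a lower level at 90 and 180 min. For these 33 and 13 genes, the matching shares of all genes tested were not computed.

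**Figure D3:**
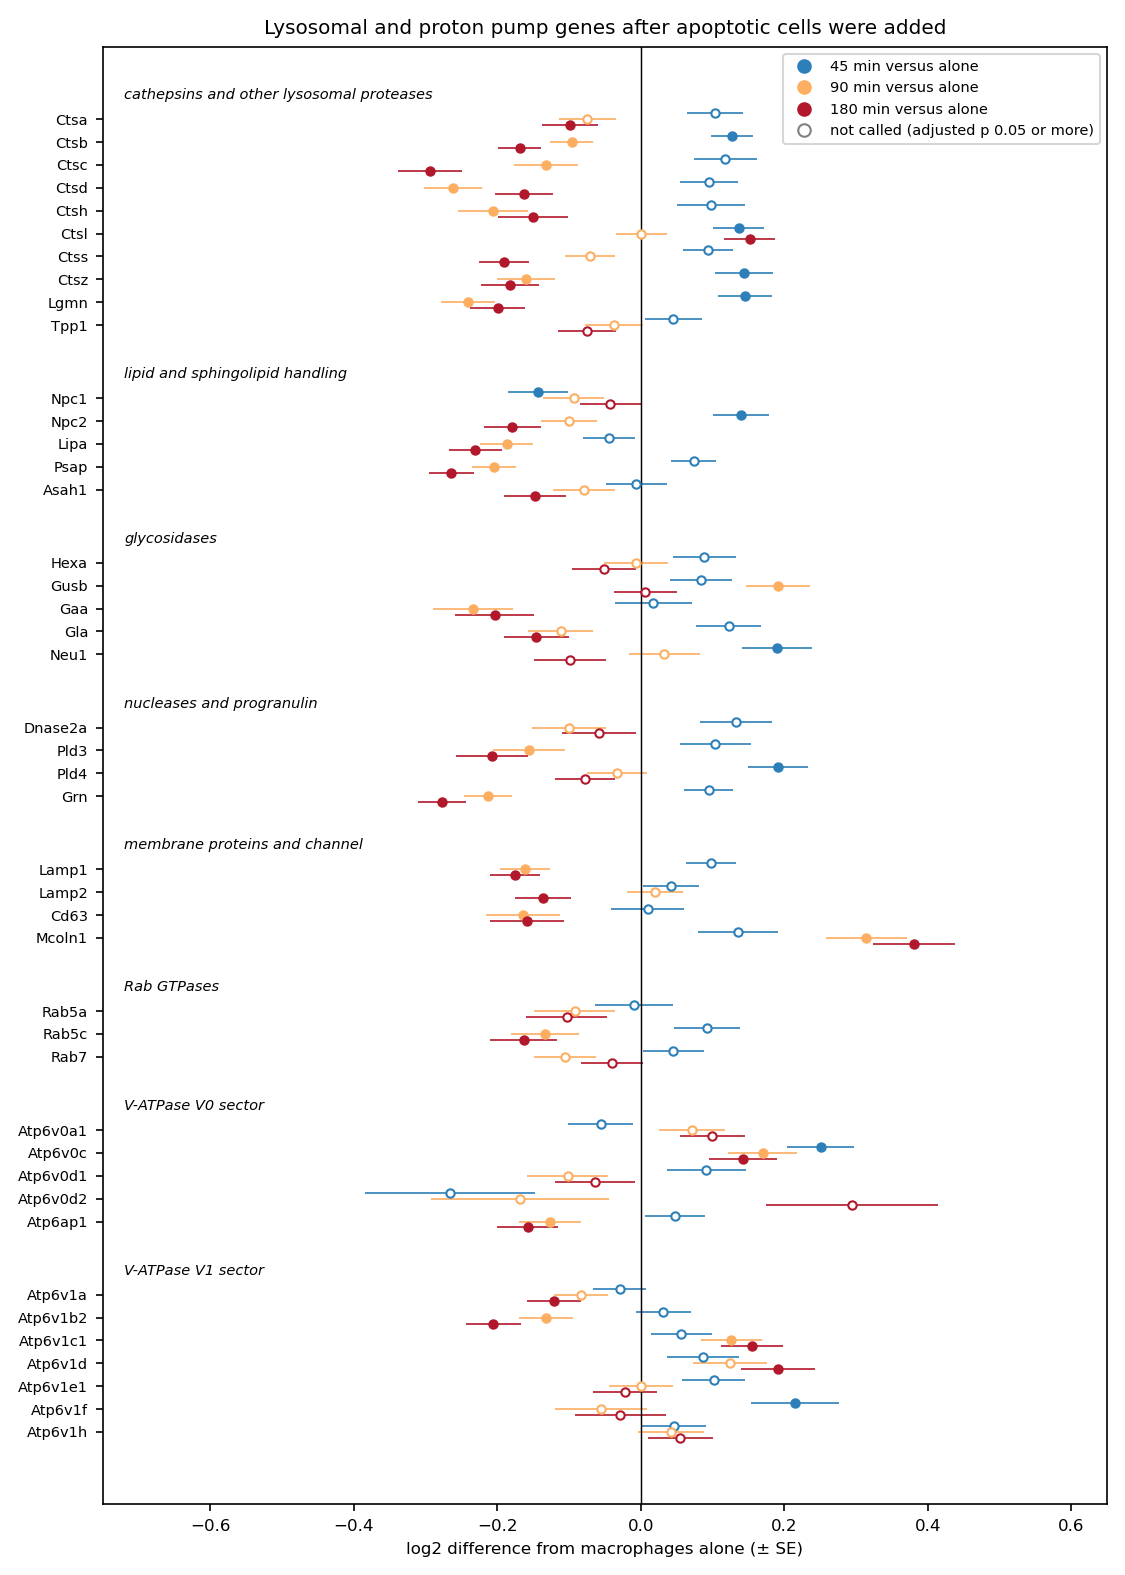
Log2 difference of each of the 43 genes from macrophages alone at 45 min (blue), 90 min (orange) and 180 min (red), with its standard error; filled points were called at an adjusted p under 0.05. Most red and orange points lie left of 0 and most blue points right of 0, with Mcoln1, Atp6v0c and Atp6v1c1 to the right at 90 and 180 min.

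Cathepsins and related proteases, which cut swallowed proteins, are the largest group. Against macrophages alone, 4 of the 10 were higher at 45 min, 6 were lower at 90 min and 8 were lower at 180 min. Over all genes tested, these shares were 4.69%, 9.97% and 16%. Of the 10, only Ctsl, cathepsin L, was higher at 180 min, and Tpp1, tripeptidyl peptidase, was called at no time against macrophages alone. Ctsd, the aspartic protease cathepsin D, was at 2989, 2875, 3016 and 2839.7 CPM in macrophages alone, 3171, 3091, 3040.5 and 3216 CPM at 45 min, 2235, 2627, 2588 and 2326 CPM at 90 min and 2848, 2461, 2522 and 2635 CPM at 180 min. All libraries at 90 min lay below all of macrophages alone, those at 180 min overlapped them, and those at 45 min lay above. Its log2 difference from macrophages alone was -0.26 (SE 0.0403) at 90 min and -0.16 (SE 0.0402) at 180 min, with Benjamini-Hochberg adjusted p = 7.72e-07 and 9.97e-04 in edgeR's quasi-likelihood test, and 0.10 at 45 min, which was not called (adjusted p = 0.129).

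Lgmn encodes legumain, which cuts after asparagine and processes cathepsins. It was at 1483, 1453, 1469.8 and 1467 CPM in macrophages alone, 1689.6, 1579, 1568 and 1659 CPM at 45 min, 1215, 1278, 1272 and 1205 CPM at 90 min and 1376, 1260.1, 1206 and 1272 CPM at 180 min. Every library at 45 min was above every library of macrophages alone, and every library at 90 and 180 min was below them. The log2 differences were 0.15 at 45 min, -0.24 at 90 min and -0.20 at 180 min (SE 0.0377 to 0.0378), with adjusted p = 0.0059, 1.22e-06 and 2.15e-05 in edgeR's quasi-likelihood test with Benjamini-Hochberg adjustment. Between 45 and 90 min Lgmn fell by 0.39 with an SE of 0.0378 (edgeR, adjusted p = 3.05e-12), the steepest fall between those times among the 43.

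Ctsz, the carboxypeptidase cathepsin Z, followed the same course. Its levels were 1393, 1302, 1388 and 1276 CPM in macrophages alone, 1519, 1436, 1445 and 1521 CPM at 45 min, 1196, 1254, 1231 and 1115 CPM at 90 min and 1286, 1152, 1121 and 1165 CPM at 180 min. The 45 min libraries were all above and the 90 min libraries all below those of macrophages alone, while 1 library at 180 min reached into their range. Log2 differences were 0.14, -0.16 and -0.18 at the 3 times, with adjusted p = 0.0124, 0.00244 and 2.86e-04 (edgeR's quasi-likelihood test, Benjamini-Hochberg). Ctsb, cathepsin B, chosen for its pattern after its values were seen, was the third gene that was higher at 45 min and lower at both later times. Its mean was 14259 ± 417 CPM in macrophages alone, 15577 ± 414 CPM at 45 min, 13337 ± 432 CPM at 90 min and 12686 ± 485 CPM at 180 min (SD, n = 4 each). The call of Ctsb at 90 min (log2 difference -0.10) was lost without library 3 of macrophages alone or library 4 of 90 min, with adjusted p up to 0.082 in edgeR's quasi-likelihood test.

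Ctsc, cathepsin C, which activates other proteases by removing dipeptides, had the largest fall of the 43 against macrophages alone. It was at 697, 724, 713 and 759 CPM in macrophages alone, 823, 748, 772 and 795 CPM at 45 min, 625, 682, 655 and 676 CPM at 90 min and 642, 585, 528 and 605 CPM at 180 min. Libraries at 90 and 180 min lay below all of macrophages alone, and those at 45 min overlapped them. The log2 difference was -0.13 (SE 0.0441) at 90 min and -0.29 (SE 0.0441) at 180 min, with adjusted p = 0.0239 and 1.87e-07 (edgeR's quasi-likelihood test, Benjamini-Hochberg). It also fell from 90 to 180 min, by 0.16 (adjusted p = 0.00801, same edgeR test), a call lost without library 4 of 90 min or library 3 of 180 min. The call at 90 min against macrophages alone was lost without library 4 of macrophages alone, library 1 of 90 min or library 3 of 90 min (adjusted p up to 0.0922 in edgeR's test).

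Ctsh, cathepsin H, an aminopeptidase, was at 151, 153, 164 and 154 CPM in macrophages alone, 161, 155, 177 and 172 CPM at 45 min, 132, 134, 136 and 137 CPM at 90 min and 147, 144, 136 and 136 CPM at 180 min. Libraries at 90 and 180 min lay below all of macrophages alone. Its log2 differences at those times were -0.21 and -0.15, with adjusted p = 0.0011 and 0.0138 in edgeR's quasi-likelihood test with Benjamini-Hochberg adjustment. The call at 180 min was lost without library 3 of macrophages alone or library 3 or 4 of 180 min (adjusted p up to 0.113, edgeR). Ctss, cathepsin S, which also trims the MHC class II invariant chain, and Ctsa, a carboxypeptidase, were lower only at 180 min against macrophages alone. Ctss fell by 0.19 (adjusted p = 1.20e-05, edgeR's quasi-likelihood test), and all its libraries at 180 min lay below the others. Ctsa had a log2 difference of -0.10 with an adjusted p of 0.0499 in edgeR's test, and lost its call under 20 of the 25 alternatives.

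Ctsl took another course, and its values are given for that reason, after they were seen. Levels were 1654, 1751, 1834 and 1762 CPM in macrophages alone, 1905, 1873, 1947 and 1972 CPM at 45 min, 1772, 1739, 1774 and 1719 CPM at 90 min and 2026, 1916, 1867 and 1968 CPM at 180 min. The libraries of 45 and 180 min were all above those of macrophages alone, and the libraries of 90 min lay within the range of the latter. Log2 differences were 0.14, 0.00 and 0.15, with adjusted p = 0.00603, 0.994 and 5.43e-04 (edgeR's quasi-likelihood test, Benjamini-Hochberg). From 90 to 180 min Ctsl rose by 0.15 (adjusted p = 0.00164, same test), while none of the other 9 proteases was called higher in that interval.

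**Figure D4:**
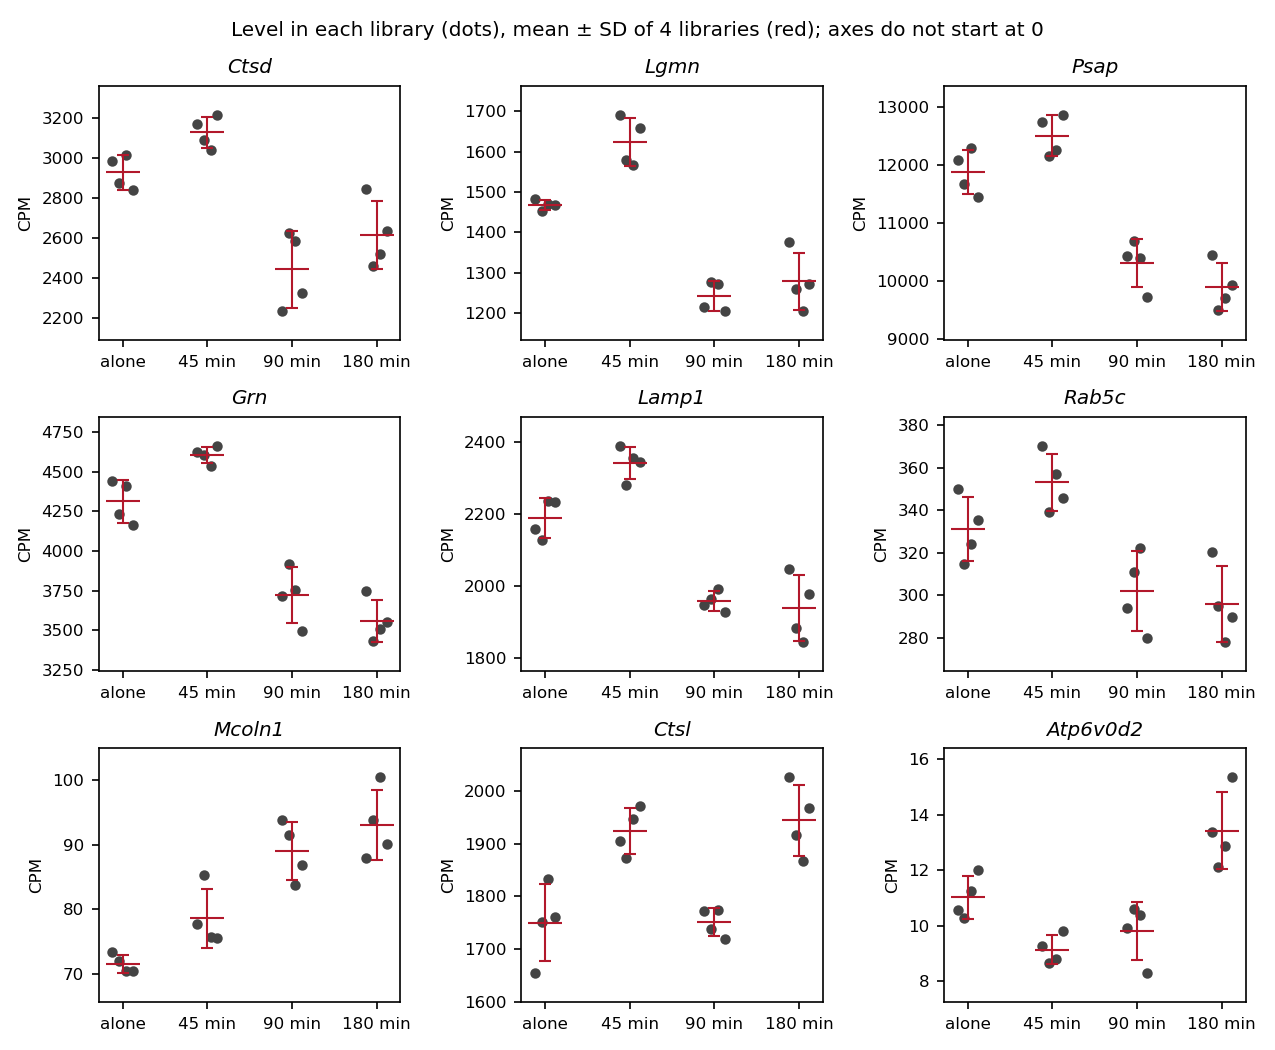
Level in CPM of 9 genes in each of the 16 libraries (dots), with the mean and SD of 4 libraries per group (red); the axes do not start at 0. Ctsd, Lgmn, Psap, Grn, Lamp1 and Rab5c drop from 45 to 90 min, Mcoln1 is highest at 90 and 180 min, Ctsl is high at 45 and 180 min, and Atp6v0d2 is highest at 180 min.

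Among the 5 genes that handle lipids, 2 were lower at 90 min and 4 at 180 min, and none was higher at either time. Over all genes tested, 9.97% were lower and 11.1% higher at 90 min, and 16% lower and 15.1% higher at 180 min. Psap encodes prosaposin, the precursor of the saposins that present sphingolipids to their hydrolases. In macrophages alone it had the highest level of the 43 per kilobase of annotated exon, though not before division by length. It was at 12090.0, 11683, 12306 and 11461 CPM in macrophages alone, 12757, 12159, 12261 and 12863 CPM at 45 min, 10435, 10685, 10404 and 9729.9 CPM at 90 min and 10457, 9494, 9706 and 9933 CPM at 180 min. All libraries at 90 and 180 min lay below all of macrophages alone, and those at 45 min overlapped them. The log2 difference was -0.20 at 90 min and -0.26 at 180 min (SE 0.0312 for both), with adjusted p = 6.48e-07 and 3.34e-10 (edgeR's quasi-likelihood test, Benjamini-Hochberg).

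Npc2 and Npc1 carry cholesterol out of the lysosome, Npc2 as the soluble and Npc1 as the membrane protein. Npc2 was at 1443, 1488, 1571 and 1515 CPM in macrophages alone, 1641, 1618, 1673 and 1695 CPM at 45 min, 1356, 1428, 1472 and 1358 CPM at 90 min and 1448, 1242, 1304 and 1321 CPM at 180 min. The libraries at 45 min lay above all of macrophages alone, and those at 90 and 180 min overlapped them. It rose by 0.14 at 45 min and fell by 0.18 at 180 min (adjusted p = 0.0116 and 2.07e-04, edgeR's quasi-likelihood test with Benjamini-Hochberg). Npc1 was the only gene of the 43 that was lower at 45 min, with means of 298 ± 7.21 CPM against 329 ± 4.74 CPM in macrophages alone (SD, n = 4 each; log2 difference -0.14, adjusted p = 0.0174 in edgeR's test). That call was lost when any 1 library of those groups was left out, and also with no filter on low counts or after correction for gene length and GC content, with adjusted p up to 0.72 in edgeR's test.

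Lipa, lysosomal acid lipase, which frees cholesterol from its esters, fell by 0.19 at 90 min and by 0.23 at 180 min (adjusted p = 7.84e-05 and 6.66e-07, edgeR's quasi-likelihood test with Benjamini-Hochberg), with no overlap between the groups. Asah1, acid ceramidase, fell by 0.15 at 180 min (adjusted p = 0.00567, same test), with a mean of 243 ± 3.67 CPM against 269 ± 8.67 CPM in macrophages alone (SD, n = 4 each).

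The 5 glycosidases, which remove sugars from glycolipids and other chains, did not move as one. Neu1, a sialidase, was higher at 45 min only, Gusb, beta-glucuronidase, at 90 min only, Gaa, the glycogen-splitting acid alpha-glucosidase, was lower at 90 and 180 min, Gla, alpha-galactosidase A, was lower at 180 min only, and Hexa, a beta-hexosaminidase subunit, was called at no time. Gla was at 361, 373, 378 and 387 CPM in macrophages alone, 391, 383, 427 and 429.7 CPM at 45 min, 375, 331, 353 and 329 CPM at 90 min and 346, 322, 331 and 355 CPM at 180 min. The libraries at 180 min lay below those of macrophages alone, and those at 45 and 90 min overlapped them. The log2 difference at 180 min was -0.15 (SE 0.0457, adjusted p = 0.0106, edgeR's quasi-likelihood test), a call lost when library 4 of the controls was left out (adjusted p = 0.0534). Neu1 rose by 0.19 at 45 min, Gusb by 0.19 at 90 min, and Gaa fell by 0.23 and 0.20 at 90 and 180 min (adjusted p = 0.00551, 8.39e-04, 0.00118 and 0.00291, edgeR's quasi-likelihood test). Gusb then fell by 0.18 from 90 to 180 min, to a mean of 247 ± 8.25 CPM beside 245 ± 10.9 CPM in macrophages alone (SD, n = 4 each; adjusted p = 0.00216, edgeR).

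Among the nucleases and progranulin, all 4 were lower at 90 and at 180 min than at 45 min. Over all genes tested, 13.3% were lower at 90 against 45 min and 18% at 180 against 45 min. Grn encodes progranulin, a secreted protein that is cut into granulins in the lysosome and is needed for its function. It was at 4441, 4236, 4410.0 and 4165 CPM in macrophages alone, 4622, 4608, 4534 and 4660.2 CPM at 45 min, 3719, 3919, 3757 and 3493 CPM at 90 min and 3746, 3434, 3506 and 3551 CPM at 180 min. The 45 min libraries were all above, and the 90 and 180 min libraries all below, those of macrophages alone. Log2 differences were 0.09, -0.21 and -0.28, with adjusted p = 0.0601, 1.63e-06 and 8.56e-10 (edgeR's quasi-likelihood test, Benjamini-Hochberg), so that the difference at 45 min was not called.

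Pld3 and Pld4 are lysosomal exonucleases that shorten single-stranded nucleic acids. Pld3 was at 228, 207, 228 and 203 CPM in macrophages alone, 243, 229, 225 and 233 CPM at 45 min, 187, 199.99, 197 and 193 CPM at 90 min and 212, 186, 174 and 179 CPM at 180 min. Its libraries at 90 min lay below those of macrophages alone, and those at 45 and 180 min overlapped them. It fell by 0.16 at 90 min and 0.21 at 180 min (adjusted p = 0.0198 and 8.54e-04, edgeR's quasi-likelihood test), the former call being lost when library 1 or 3 of the controls was left out (adjusted p up to 0.102). Pld4 was higher at 45 min by 0.19 (adjusted p = 9.63e-04, same test) and was not called at 90 or 180 min against macrophages alone. Dnase2a, the acid DNase that degrades the DNA of swallowed cells, was not called against macrophages alone at any time, with log2 differences of 0.13, -0.10 and -0.06, but fell by 0.23 from 45 to 90 min (adjusted p = 3.17e-04, edgeR).

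Of the 4 membrane proteins, the channel gene was higher at 180 min and the other 3 were lower. Over all genes tested, 15.1% were higher and 16% lower at that time. Mcoln1 encodes TRPML1, the channel that lets calcium out of lysosomes. It was at 73.3, 72.0, 70.3 and 70.4 CPM in macrophages alone, 77.7, 85.3, 75.7 and 75.6 CPM at 45 min, 93.8, 91.5, 83.7 and 86.8 CPM at 90 min and 88.0, 93.8, 100.4 and 90.0 CPM at 180 min. At every time all libraries lay above all of macrophages alone. Its log2 difference was 0.14 (SE 0.0556) at 45 min, 0.31 (SE 0.0569) at 90 min and 0.38 (SE 0.0566) at 180 min, with adjusted p = 0.115, 2.05e-05 and 1.43e-07 (edgeR's quasi-likelihood test, Benjamini-Hochberg). The rise to 180 min was the largest of the 43 against macrophages alone, and it was called under each of the 25 alternatives. Between 45 and 90 min the difference of 0.18 (adjusted p = 0.0121, edgeR) lost its call when library 1, 3 or 4 of 45 min or library 1 or 2 of 90 min was left out.

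Lamp1 encodes the most abundant glycoprotein of the lysosomal membrane. It was at 2157, 2126, 2236 and 2233 CPM in macrophages alone, 2388, 2280.5, 2357 and 2343 CPM at 45 min, 1947, 1963, 1991 and 1926 CPM at 90 min and 2048, 1883, 1843 and 1977 CPM at 180 min. The 45 min libraries lay above all of macrophages alone and the 90 and 180 min libraries below them. It fell by 0.16 at 90 min and by 0.18 at 180 min (SE 0.0350 for both), with adjusted p = 3.61e-04 and 5.24e-05 (edgeR's quasi-likelihood test, Benjamini-Hochberg). Its promoter, printed above beside that of Mcoln1, holds CACGTG 4 times and that of Mcoln1 holds it at 2 places. Lamp2, a related glycoprotein needed for autophagosome fusion, fell by 0.14 at 180 min only (adjusted p = 0.0049, edgeR), and this call was lost when library 4 of the controls was left out (adjusted p = 0.0599). Cd63, a tetraspanin of lysosomes and multivesicular bodies, fell by 0.16 at 90 min and by 0.16 at 180 min (adjusted p = 0.0157 and 0.0137, edgeR), and both calls were lost without library 3 of macrophages alone. The call at 180 min was also lost without library 3 or 4 of 180 min, with adjusted p up to 0.168 in edgeR's test. Counts of the Cd63 pseudogene Cd63-ps came to 1.22% of those of Cd63.

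The Rab GTPases direct membrane fusion on the way to the lysosome, Rab5 at early and Rab7 at late endosomes. Rab5c was at 349.8, 315, 324 and 335 CPM in macrophages alone, 370.0, 339, 357 and 346 CPM at 45 min, 294, 311, 322 and 279.7 CPM at 90 min and 320.4, 295, 278 and 289.9 CPM at 180 min. Its libraries overlapped those of macrophages alone at each time. The log2 difference was -0.13 at 90 min and -0.16 at 180 min (SE 0.0469 for both), with adjusted p = 0.0335 and 0.00491 (edgeR's quasi-likelihood test, Benjamini-Hochberg). The call at 90 min was lost without library 1 or 4 of either group, with adjusted p up to 0.163 in edgeR's test. Neither Rab5a nor Rab7 was called against macrophages alone, with log2 differences between -0.11 and 0.05 for Rab7 and between -0.10 and -0.01 for Rab5a, and Rab7 fell by 0.15 from 45 to 90 min (adjusted p = 0.00564, edgeR).

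The 12 genes of the proton pump split into those that rose, those that fell and those not called. Against macrophages alone at 180 min, Atp6v0c, Atp6v1c1 and Atp6v1d were higher, Atp6ap1, Atp6v1a and Atp6v1b2 were lower, and the other 6 were not called. Among the 5 genes of the V0 sector 1 was higher and 1 lower at 180 min, and among the 7 of the V1 sector 2 were higher and 2 lower. Over all genes tested, 15.1% were higher and 16% lower at that time, so these counts are near the background.

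**Figure D5:**
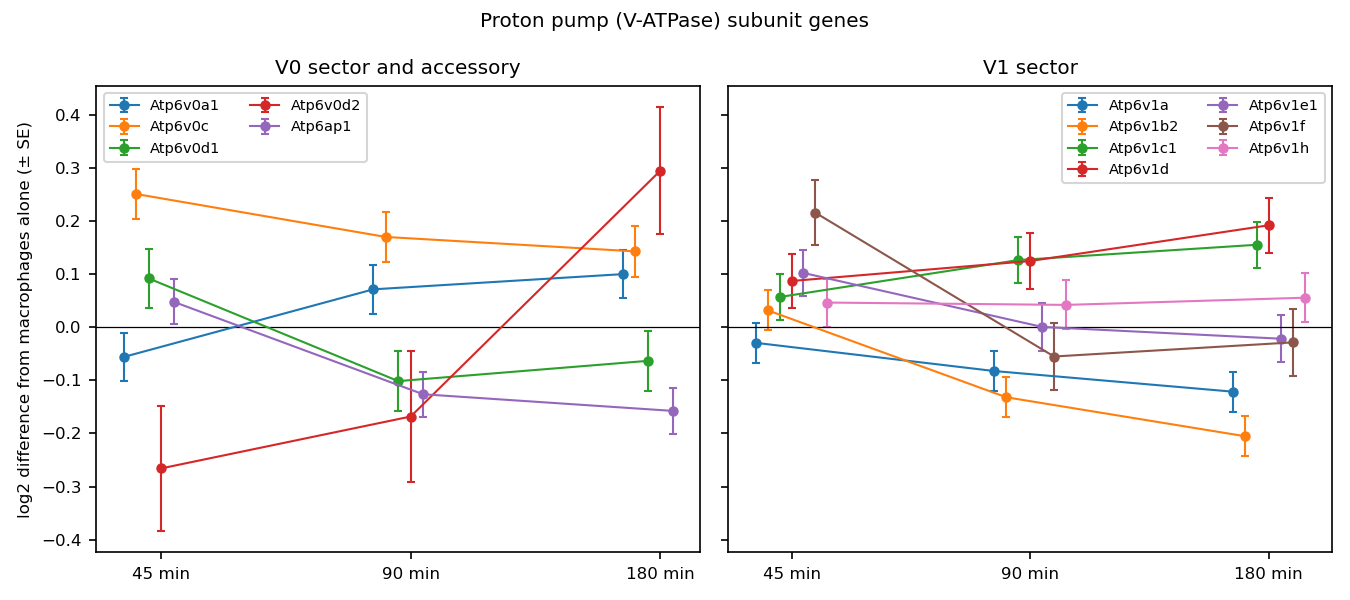
Log2 difference from macrophages alone, with its standard error, of 5 genes of the V0 sector (left, accessory subunit included) and 7 genes of the V1 sector (right) at 45, 90 and 180 min. Atp6v0d2 runs from -0.27 at 45 min to 0.29 at 180 min, Atp6v0c stays above 0, and Atp6v1b2 and Atp6v1c1 lie on opposite sides of 0 at 90 and 180 min.

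In the V0 sector, Atp6v0d2 had the widest swing. This gene encodes the d2 isoform of the subunit that joins the 2 sectors, known from osteoclasts and macrophages. Its level per length was the lowest of the 43, and it was at 10.6, 10.3, 11.3 and 12.02 CPM in macrophages alone, 9.26, 8.65, 8.82 and 9.80 CPM at 45 min, 9.93, 10.6, 10.4 and 8.30 CPM at 90 min and 13.4, 12.1, 12.9 and 15.3 CPM at 180 min. All libraries at 180 min lay above all others and all at 45 min below those of macrophages alone. It rose by 0.56 (SE 0.119) from 45 to 180 min and by 0.46 (SE 0.125) from 90 to 180 min, with adjusted p = 1.31e-04 and 0.00682 (edgeR's quasi-likelihood test, Benjamini-Hochberg). Against macrophages alone it was not called, with -0.27 at 45 min, -0.17 at 90 min and 0.29 at 180 min (adjusted p = 0.156, 0.371 and 0.0537, edgeR). The other isoform, Atp6v0d1, fell by 0.19 from 45 to 90 min (adjusted p = 0.00635, edgeR) and had a log2 difference of 0.04 from 90 to 180 min, not called. Whether the isoforms differed in their change was not tested.

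Atp6v0c encodes the proteolipid that forms the proton-carrying ring, and was the only gene of the 43 that was higher at all 3 times. Its values, chosen for that after they were seen, were 199, 182, 195 and 185 CPM in macrophages alone, 221, 220.1, 234 and 232 CPM at 45 min, 223, 217, 223 and 194 CPM at 90 min and 219.9, 214, 206 and 202 CPM at 180 min. Libraries at 45 and 180 min lay above all of macrophages alone, and 1 library at 90 min reached into their range. The log2 differences were 0.25, 0.17 and 0.14 (SE 0.0469 to 0.0477), with adjusted p = 1.01e-04, 0.00636 and 0.0165 (edgeR's quasi-likelihood test, Benjamini-Hochberg). The call at 90 min was lost without library 1 of 90 min, that at 180 min without library 2 of macrophages alone or of 180 min, and both after correction for gene length and GC content (adjusted p up to 0.308, edgeR). The pseudogene Atp6v0c-ps2 held 0.428% as many counts as Atp6v0c.

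Atp6ap1 encodes an accessory protein of the V0 sector. It was at 379, 367, 386 and 383 CPM in macrophages alone, 399, 376, 399.5 and 392 CPM at 45 min, 358, 349.7, 338 and 343 CPM at 90 min and 369, 335, 326 and 329 CPM at 180 min. The libraries at 90 min lay below those of macrophages alone, and 1 library at 180 min reached into their range. It fell by 0.13 and 0.16 at 90 and 180 min (adjusted p = 0.0265 and 0.00284, edgeR's quasi-likelihood test), the call at 90 min being lost without library 3 or 4 of either group or with libraries thinned to equal depth (adjusted p up to 0.0807). Atp6v0a1, an isoform of the large membrane subunit, was not called against macrophages alone and was higher at 180 than at 45 min by 0.16 (adjusted p = 0.00472, edgeR).

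In the V1 sector, Atp6v1b2 encodes the B subunit, which with the A subunit forms the ATP-splitting ring. It was at 913, 961, 942 and 934 CPM in macrophages alone, 927, 936, 984 and 987 CPM at 45 min, 874, 871, 861 and 816 CPM at 90 min and 838, 785, 829 and 801 CPM at 180 min. All libraries at 90 and 180 min lay below all of macrophages alone. It fell by 0.13 and 0.21 (SE 0.0381 for both), with adjusted p = 0.00808 and 1.45e-05 (edgeR's quasi-likelihood test, Benjamini-Hochberg). Atp6v1a, the A subunit, fell by 0.12 at 180 min (adjusted p = 0.00928, edgeR), a call lost when library 3 of the controls was left out (adjusted p = 0.077).

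Atp6v1c1, whose product holds the V1 sector to the V0 sector, rose by 0.13 at 90 min and 0.16 at 180 min (adjusted p = 0.0272 and 0.00339, edgeR's quasi-likelihood test). Its means were 253 ± 8.85 CPM in macrophages alone, 276 ± 7.94 CPM at 90 min and 282 ± 6.05 CPM at 180 min (SD, n = 4 each). The call at 90 min was lost under 8 alternatives, among them leaving out library 1, 3 or 4 of macrophages alone or library 1 of 90 min (adjusted p up to 0.172, edgeR). Atp6v1d, a subunit of the central stalk, rose by 0.19 at 180 min (adjusted p = 0.00261, edgeR). Atp6v1f, another subunit of the stalk, rose by 0.22 at 45 min only (adjusted p = 0.0136, edgeR), from 57.3 ± 1.82 to 66.4 ± 1.85 CPM (SD, n = 4 each). Atp6v1e1 and Atp6v1h, a stalk and a regulatory subunit, were called at no time against macrophages alone, and Atp6v1h had the smallest spread, with log2 differences between 0.04 and 0.06.

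Levels can be compared between genes only per length, and the following are mean CPM per kilobase of annotated exon in macrophages alone, without a test. The length joins the annotated exons of all transcripts of a gene, so it can exceed that of the transcript present. The order depends on it: before division by length, Ctsb, at 14259 CPM, was above Psap in any library. Psap was highest at 4331, followed by Ctss at 3271, Ctsb at 2357, Ctsd at 1246 and Grn at 1242. Rab7, Atp6v1a and Atp6ap1 lay between 125 and 149.8. Mcoln1, at 9.47, and Atp6v0d2, at 4.06, were lowest.

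Differences varied with gene length, and the summed level of macrophage markers changed with time. The part of either in the results was not tested. Over all genes tested, the median log2 difference at 45 min was 0.06 for genes with up to about 3265 bases of exon, 0.03 for those up to about 5270 bases and -0.06 for longer ones, and over the 15, 14 and 14 members in these ranges it was 0.09, 0.09 and 0.05. After correction for length and GC content, 12 members were called higher at 45 min and 26 lower at 90 min, in place of 9 and 16, while Ctsz, Npc2, Neu1 and Pld4 lost their calls at 45 min and Atp6v0a1 its call between 45 and 180 min. The correction also moved the median log2 difference over all genes tested, to 0.03 at 45 min and -0.04 at 90 min. The share of all genes called after it was not computed, so these counts have no background beside them. At 180 min the median over the members in the 3 length ranges was -0.16, -0.10 and -0.09, and over all genes 0.04, 0.02 and -0.03, the opposite order. The macrophage markers, given above, were higher in sum in every library at 45 min than in any of macrophages alone. Pooled over the libraries of a group, Lyz2 rose most, from 5113 CPM in macrophages alone to 6006 CPM at 45 min. Mpeg1 was nearly level, at 5269 and 5285 CPM. Mertk (87.8 and 80.2 CPM) and Itgam (117 and 115 CPM) were lower at 45 min, and the other markers were higher. Later their sums reached below those of macrophages alone, with overlap, at 15364 to 16040 CPM at 90 min and 14467 to 16135 CPM at 180 min beside 15935 to 16317 CPM. With all libraries thinned to the smallest total, 8 were called higher at 45 min, and Atp6v1f was no longer among them.

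Other genes of the pathway were taken from lists that hold none of the 43. The shares of all genes called in each direction are those given above, and at 180 min they were 15.1% higher and 16% lower. Of 34 other lysosomal hydrolases, all tested, 3 were higher and none lower at 45 min, 2 were higher and 6 lower at 90 min, and 4 were higher and 12 lower at 180 min; median log2 differences were 0.08, -0.09 and -0.11. Dpp7, a dipeptidyl peptidase, rose by 0.21, 0.56 and 0.69 at the 3 times (adjusted p = 0.0225, 4.14e-10 and 9.61e-14, edgeR's quasi-likelihood test). Man2b1, which acts on mannose chains, fell by 0.14 at 90 min and by 0.15 at 180 min (adjusted p = 0.00649 and 0.00215, edgeR). Of the 5 cathepsin inhibitors, 1 was higher at 45 min, 1 higher and 1 lower at 90 min, and 1 lower at 180 min. Cst3, cystatin C, rose by 0.22 at 45 min and fell by 0.14 and 0.18 later (adjusted p = 5.87e-04, 0.0215 and 0.00213, edgeR). Serpinb9, by contrast, rose by 0.16 at 90 min (adjusted p = 0.0438, edgeR).

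Of 25 tested among 26 other lysosomal membrane proteins, 3 were higher and 8 lower at 180 min, beside 15.1% and 16% of all genes. Their median log2 difference was -0.09. Cd68, a glycoprotein used as a macrophage marker, fell by 0.26, and Slc29a3, a nucleoside transporter, by 0.37 (adjusted p = 3.69e-06 and 3.85e-09, edgeR's quasi-likelihood test). Tpcn2, a cation channel of the lysosome, rose by 0.41, while its relative Tpcn1 fell by 0.39 (adjusted p = 1.77e-06 and 1.73e-05, edgeR). Slc36a1 and Spns1, which export amino acids and lysophospholipids, rose by 0.48 and 0.45 (adjusted p = 1.10e-08 and 2.35e-07, edgeR).

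Of 14 tested among 19 other pump subunits and assembly factors, 5 were higher and 4 lower at 180 min, beside 15.1% and 16% of all genes. Genes of the rabconnectin complex, which joins the pump's sectors, were called in both directions. Dmxl2 fell by 0.30 at 45 min and rose by 0.59 at 180 min (adjusted p = 1.35e-05 and 7.40e-15, edgeR's quasi-likelihood test). Dmxl1 fell by 0.25 at 45 min and by 0.20 at 180 min (adjusted p = 3.25e-04 and 0.00169, edgeR), and Wdr7 by 0.25 and 0.24 (adjusted p = 2.34e-04 and 1.06e-04, edgeR). Tcirg1, the a3 isoform of the large V0 subunit, rose by 0.20, 0.22 and 0.15 at the 3 times (adjusted p between 1.41e-04 and 0.00642, edgeR). Of 26 trafficking genes, 5 were higher and 3 lower at 180 min, which is near the background over all genes. Vps18, of the HOPS and CORVET tethering complexes, rose by 0.39, Eea1, an early endosome tether, by 0.31, and Gnptab, which starts the mannose 6-phosphate tag of hydrolases, by 0.36 (adjusted p at most 2.18e-07, edgeR). Eea1 had fallen by 0.17 at 45 min (adjusted p = 0.00565, edgeR). The 3 lower at 180 min were Vps33a, of the same tethering complexes as Vps18, by 0.19, the Rab GTPase gene Rab5b by 0.19, and Pikfyve, a lipid kinase, by 0.13 (adjusted p = 0.00186, 0.00638 and 0.02004, edgeR).

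The 3 MiT/TFE factors, known to bind the promoter letters above, differed among themselves. Tfeb was not called at 45 or 90 min, with log2 differences of -0.03 and -0.05, and rose by 0.26 at 180 min (adjusted p = 0.0258, edgeR's quasi-likelihood test). Mitf was not called at 45 or 90 min and fell by 0.41 at 180 min (adjusted p = 1.86e-10, edgeR). Tfe3 was called at no time against macrophages alone and was at 140.3 CPM at 180 min and 134 CPM in macrophages alone. These are RNA levels, and the place of the proteins in the cell, by which these factors are known to be controlled, was not measured.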

How the data were processed

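Total RNA of 16 libraries was measured, 4 for each of macrophages alone and 45, 90 and 180 min with apoptotic Jurkat cells. The values are raw read counts by gene, as the authors deposited them in 1 table, with no normalization. Per the labels' protocols, ribosomal RNA was depleted and a directional kit was used. Per the submitters' processing notes, the tools were STAR 2.7.9a, SAMtools and HTSeq and the build mm39. Not given in the sources used here were how human reads were handled, whether counting used strand and which annotation release served. Column names give only the group, so libraries were numbered 1 to 4 in file order as names.

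Symbols, lengths and gene classes came from GENCODE M21, an annotation of the earlier build, which named 52135 of the 55416 IDs; IDs without a symbol held 0.208% to 0.321% of counts. Library totals ran from 10.7 M to 41.7 M, and replicates differed by more than sampling noise (chi-square per degree of freedom 3.84 to 9.55). edgeR's filter on low counts (filterByExpr, minimum count 10, minimum total 15) left 14168 genes, library totals were scaled by TMM, and edgeR 4.0.16 (R 4.3.3) ran its quasi-likelihood F test with group as the only term over all 16 libraries, with Benjamini-Hochberg adjustment over all genes and calls at an adjusted p under 0.05. Log2 differences are model coefficients, and a standard error is the coefficient's size divided by the square root of F. The common biological coefficient of variation was 7.81%. The script was tested on simulated data. DESeq2 1.42.0 was an alternative.

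The 43 genes and the other lists were chosen with earlier results of these data known. Values in every library are printed for genes called with a log2 difference of at least 0.3 in any comparison and for the gene of each role with the smallest p for any change, besides 3 genes (Ctsb by its means, Ctsl and Atp6v0c) chosen after their values were seen. Of the other lists, up to 4 genes per direction and comparison, by smallest p, and Tfeb, Tfe3 and Mitf could be named. Promoter sequences are RefSeq's (GRCm38.p6). Protein sequences were not used here.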

Additional observations from a re-analysis of the deposited data

Results flagged for a closer look

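In 7 of 172 groups of 4 libraries (43 genes in 4 groups), the highest or lowest library stood far from the other 3, by a gap above Dixon's 95% critical value; chance gives about 1 in 20. No library stood apart in this way for more than 1 gene. At 90 min, library 4 was the low one for Ctsb, at 12696 CPM, library 2 the low one for Lamp2, at 1076 CPM, and library 1 the high one for Atp6v1c1, at 288 CPM. In macrophages alone, library 3 was the high one for Cd63, at 186 CPM, and library 1 the low one for Atp6v1f, at 54.6 CPM. At 180 min, library 1 was the high one for Hexa, at 396 CPM, and library 4 the high one for Atp6v1h, at 163 CPM.

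For 4 genes the difference from macrophages alone was called in opposite directions at 45 min and later. That choice all but fixes a difference between the times, whose values are a description. Between 90 and 45 min the log2 difference was -0.22 for Ctsb, -0.30 for Ctsz and -0.39 for Lgmn. Between 180 and 45 min it was -0.30 for Ctsb, -0.33 for Ctsz, -0.34 for Lgmn and -0.32 for Npc2.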

How the results depend on the processing

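Of 127 called results of single genes over the 6 comparisons, 94 were called in the same direction under all 25 alternatives, 33 lost their call under 1 or more and 0 reversed. At 45 min against macrophages alone the 9 higher genes became 17 with only the groups compared in the fit, and 1 lower became 0 with no filter on low counts and 0 with the length and GC trend removed. The 2 higher at 90 against 45 min became 1 with no filter. The 3 higher at 180 against 45 min became 5 with DESeq2, 6 with library totals unscaled, 6 with a minimum count of 50 and 6 with coding genes only. Unscaled totals gave 3 higher and 3 lower at 180 against 90 min, in place of 2 and 4, and 6 higher and 26 lower at 180 against 45 min, in place of 3 and 31. The trend's removal gave 12 higher at 45 min, and 2 higher and 26 lower at 90 min in place of 4 and 16. It also moved the median log2 difference over all genes tested at these times, to 0.03 and -0.04. The joint test called 37 to 41 genes under these settings.

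Leaving out 1 library gave 9 to 19 genes higher and 0 to 1 lower at 45 min against macrophages alone, 2 to 5 higher and 12 to 19 lower at 90 min, 4 to 6 higher and 19 to 23 lower at 180 min, 0 to 1 higher and 27 to 30 lower at 90 against 45 min, 2 to 3 higher and 2 to 6 lower at 180 against 90 min, 3 higher and 27 to 33 lower at 180 against 45 min, and 35 to 41 in the joint test. The count of higher genes at 45 min passed 1.5 times 9 without library 3 of macrophages alone (14), library 2 of 45 min (16), library 2, 3 or 4 of 90 min (18, 16 and 17) or library 1 or 4 of 180 min (19 and 16). The 1 lower gene at 45 min was lost without any of the 8 libraries of those groups, the 4 higher at 90 min became 2 without library 1 of 90 min, and the 4 lower at 180 against 90 min became 2 without library 3 of 180 min. The 2 higher at 90 against 45 min became 0 or 1 without any of the 16. Why these counts changed was not tested, and the share of all genes called under these settings was not computed.

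No paired analysis was possible because the columns of the count table carry no replicate number. With 4 libraries a group, totals down to 10.7 M and differences of about 10%, small changes lie near the limit of detection, so a gene not called is not shown to be unchanged.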
